A study of Mus musculus with 157 samples.

Results

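The genes described here are the nuclear genes whose names mark them as parts of the respiratory chain and of the ATP synthase. They were chosen by symbol and by the protein-coding class given in the read-count table: names starting with Nduf (complex I and its assembly factors), the 4 genes Sdha to Sdhd (complex II), names starting with Uqcr (complex III), names starting with Cox4 to Cox8 (complex IV) and names starting with Atp5 (ATP synthase). The rule found 90 of 19600 genes: 37 of complex I, 7 complex I assembly factors, 4 of complex II, 8 of complex III, 16 of complex IV and 18 of the ATP synthase. Symbols follow the annotation of the table, so that Cox7a2l, now known as a factor that joins complexes III and IV, is counted with complex IV, and Ndufa4, now placed in complex IV, with complex I. Likewise Atp5sl, whose transcript is annotated as Dmac2, and Atp5l-ps1, by its name a pseudogene, are counted with the ATP synthase.

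All samples were splenic B cells of C57BL/6Babr mice activated with the bacterial mitogen lipopolysaccharide (LPS, 10 µg/ml). The LPS group had 48 h of LPS alone. The LPS+ET group had 48 h of LPS and then etoposide, a topoisomerase II poison that leaves DNA double-strand breaks, at 20 µM for 4 h. The LPS+ET+KU group had 47 h of LPS, 1 h of the ATM kinase inhibitor KU55933 at 10 µM and then the same etoposide treatment. As labelled, both etoposide groups were in culture 4 h longer than LPS, which cannot be told apart from the drug. No group had KU55933 without etoposide. Cytoplasmic extracts with cycloheximide were spread on sucrose gradients, and each of fractions 4 to 16 gave a library of 3′ end tags. By the labels, fractions 4 to 7 are monosomes, 8 to 10 light polysomes and 11 to 16 heavy polysomes. Each treatment had 4 gradients, 1 in each of the library pools LUL15 to LUL18, and values for 4 gradients are given below in that pool order. No label says whether the gradients came from separate mice, so p-values measure the spread between gradients.

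The respiratory chain passes electrons from NADH and succinate through complexes I to IV to oxygen and pumps protons across the inner mitochondrial membrane, and the ATP synthase uses the returning protons to make ATP. Mitochondrial DNA encodes a few core subunits of complexes I, III and IV and of the ATP synthase, and nuclear genes encode all the others, whose mRNAs are translated in the cytosol and their proteins imported. Activated B cells enlarge their mitochondria and raise respiration as they grow. Many nuclear subunits are very short proteins with few transmembrane segments, and a short coding sequence has room for few ribosomes.

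The range of coding lengths bears on where these mRNAs sediment, and the sequences of a few members are therefore shown from start codon to stop codon (both in capitals), as held by the GENCODE annotation of GRCm38. Atp5e (epsilon subunit of the ATP synthase, chr2:174461071-174464104, minus strand) has 52 codons, Uqcr10 (a small subunit of complex III, chr11:4701972-4704341, minus strand) 64 and Cox8a (the ubiquitous form of subunit VIII of complex IV, chr19:7215157-7217615, minus strand) 69. Each of these is a complete coding sequence.
Atp5e: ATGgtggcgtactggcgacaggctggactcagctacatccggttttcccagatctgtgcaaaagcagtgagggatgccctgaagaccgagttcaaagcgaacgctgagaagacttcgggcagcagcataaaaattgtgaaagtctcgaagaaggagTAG
Uqcr10: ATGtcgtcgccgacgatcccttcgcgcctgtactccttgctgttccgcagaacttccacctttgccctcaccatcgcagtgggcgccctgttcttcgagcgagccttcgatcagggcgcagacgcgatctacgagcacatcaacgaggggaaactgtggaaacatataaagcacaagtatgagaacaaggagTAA
Cox8a: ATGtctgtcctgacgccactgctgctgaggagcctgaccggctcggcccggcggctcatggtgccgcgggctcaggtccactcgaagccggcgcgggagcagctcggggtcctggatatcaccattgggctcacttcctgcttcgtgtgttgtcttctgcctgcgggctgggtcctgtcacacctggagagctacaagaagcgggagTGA
Sdha (the flavoprotein of complex II, chr13:74322253-74350279, minus strand) has 664 codons, and the first 120 bases of its coding sequence are shown.
Sdha, bases 1 to 120: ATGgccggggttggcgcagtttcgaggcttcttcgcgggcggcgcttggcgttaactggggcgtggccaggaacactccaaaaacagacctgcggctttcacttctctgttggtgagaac

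The 2 forms of subunit VIb of complex IV are shown because Cox6b2 had the largest change between treatments among the members. Cox6b1 (chr7:30616973-30626150, minus strand) is the form found in most tissues, and Cox6b2 (chr7:4751791-4753093, minus strand) is known from testis. Their coding sequences of 86 and 88 codons are identical in 175 of 275 aligned columns (63.6%). The tags lie at the 3′ ends, which this alignment does not cover, and neither gene shared a run of 36 bases in its last 150 bases with another annotated gene.
Cox6b1: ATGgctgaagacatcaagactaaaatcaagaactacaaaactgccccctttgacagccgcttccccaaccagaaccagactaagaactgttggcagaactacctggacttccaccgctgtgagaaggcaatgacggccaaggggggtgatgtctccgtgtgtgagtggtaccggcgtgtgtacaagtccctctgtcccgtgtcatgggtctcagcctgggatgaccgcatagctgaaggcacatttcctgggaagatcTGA
Cox6b2: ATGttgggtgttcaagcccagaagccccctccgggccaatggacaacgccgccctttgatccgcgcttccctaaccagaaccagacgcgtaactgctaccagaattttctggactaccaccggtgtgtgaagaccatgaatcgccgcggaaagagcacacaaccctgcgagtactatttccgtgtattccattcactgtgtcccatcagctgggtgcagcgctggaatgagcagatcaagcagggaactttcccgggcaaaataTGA

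The 156 libraries of fractions 4 to 16 held 156884501 counts, from 14724 to 4170688 per library (median 811932) and from 6404957 to 21449781 per gradient. The members took 2.04% of them. The gradients of pool LUL16 stood apart for some markers. Summed T cell markers were at 297 and 378 CPM (counts scaled to a common library size) in the LPS+ET and LPS+ET+KU gradients of that pool and at 83.8 to 159 in the other 10 gradients. Nearly all of that sum was Lck, at up to 294 and 362 CPM in these treatments, while Cd3e, Cd3g and Cd8a were at no more than 0.432 CPM in any gradient. Cd3d, Cd5 and Thy1 reached 1.51, 0.114 and 1.08 CPM in LPS, 1.41, 0.470 and 1.10 in LPS+ET, and 1.61, 1.18 and 2.54 in LPS+ET+KU. The 7 mitochondrially encoded mRNAs in the table summed to 3710 CPM in the LPS+ET+KU gradient of LUL16 against 19146 to 52675 elsewhere. Summed B cell markers were at 2997 to 3866 CPM in LPS, 2092 to 2428 in LPS+ET and 2134 to 2810 in LPS+ET+KU, and fewer cells of a type cannot be told apart from less RNA per cell. Summed myeloid markers were at 34.1 to 88.1 CPM in LPS, 49.8 to 169.8 in LPS+ET and 35.4 to 130.3 in LPS+ET+KU. All 8 tested were higher in LPS+ET than in LPS (median log2 change 0.79) and none passed by edgeR. At an unadjusted p under 0.05 there were 3 of them and 4384 of 12755 genes. Cd14 (3.83) and Fcgr3 (1.87) passed in LPS+ET+KU against LPS. The part of these cells in the results was not tested. No counts were found for Mpo and Alas2 in LPS, for Mb in LPS and LPS+ET+KU, and for Myh7 in LPS and LPS+ET.

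A 3′ end library gives about 1 tag per mRNA whatever its length, so CPM were not scaled by length. The libraries were made from equal amounts of RNA per fraction and sequenced to unequal depth. A gene's summed CPM therefore also depends on the fractions in which it lies, and it is not a strict measure of mRNA abundance. In the LPS group the members with the highest CPM were Cox6c (3195 ± 472 CPM, SD, n = 4), Atp5g3, which encodes the proton-carrying c subunit of the ATP synthase (1343 ± 172), Cox4i1 (1253 ± 319), Atp5j2 (1149 ± 153) and Cox7a2 (1058 ± 198). Only Cox6c was separated from the rest by more than this spread, since the ranges of the other 4 overlapped. The median over the 83 members that passed the expression filter was 125 CPM. Apart from Cox4i1, the listed core subunits tested had lower CPM than these 5. Atp5a1 and Atp5b, the alpha and beta subunits of the catalytic head of the ATP synthase, were at 654 ± 33.2 and 420 ± 93.5 CPM. Sdhb and Sdha, the iron-sulfur and flavin subunits of complex II, were at 220 ± 23.5 and 123 ± 8.13. Ndufs1 and Ndufv1, which carry electrons in complex I, were at 125 ± 18.8 and 82.9 ± 15.5. Uqcrc2 and the Rieske protein Uqcrfs1 of complex III were at 109 ± 23.2 and 60.7 ± 2.76.

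The other 7 members had too few counts to be tested in any comparison. Over all 156 libraries Atp5j had 2 counts, Cox5a 5, Cox7b2 10, Atp5l-ps1 15, Ndufa13 30, Atp5l 44 and Ndufs5 49. Cox5a, Ndufa13, Ndufs5, Atp5j and Atp5l encode subunits used in nearly every cell, and their low counts in this table are therefore no measure of expression. Of 89 members with an annotated transcript, 15 shared a run of 36 bases in their last 150 bases with another annotated gene, 3 of them among the members with too few counts. The copy Gm10250 held 62476 counts against 8000 for Atp5h, Gm10231 held 10603 against 1608 for Atp5g2, and Gm11966 held 582 against 2 for Atp5j. Gm5436 held 17077 beside 43419 for Atp5o, and Gm12251 1882 beside 6201 for Ndufs3. Whether tags were divided between these copies and the members was not tested, so the levels of Atp5h, Atp5g2, Atp5o and Ndufs3 are uncertain. Cox7c, at 14.1 to 19.7 CPM in LPS, also shares its end with another gene, Gm10012.

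Members were concentrated in the light polysomes of each gradient. In the LPS group they made up 3.67%, 3.67%, 3.32% and 3.05% of the counts in light polysomes, against 1.43% to 1.82% in monosomes and 1.42% to 1.62% in heavy polysomes, without overlap between light polysomes and either other class. By fraction the share rose from 1.14% ± 0.197 in fraction 4 to 3.91% ± 0.453 in fraction 9 and 3.82% ± 0.352 in fraction 10, and fell to 1.06% ± 0.0852 in fraction 13 (SD, n = 4). The LPS+ET gradients ran from 3.40% to 4.38% in light polysomes and the LPS+ET+KU gradients from 2.63% to 3.37%, which overlap with LPS in each case. Pool by pool, LPS+ET was above LPS in all 4 (4.26%, 4.38%, 3.40% and 3.45%), and LPS+ET+KU was below LPS in 3 of 4 (3.37%, 3.04%, 2.63% and 3.06%) and below LPS+ET in all 4, without overlap between these 2 groups. These differences of the summed share were not tested. Equal amounts of RNA were taken from each fraction, so these shares say how rich a fraction's RNA was in members and not how many mRNA molecules it held.

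**Figure D1:**
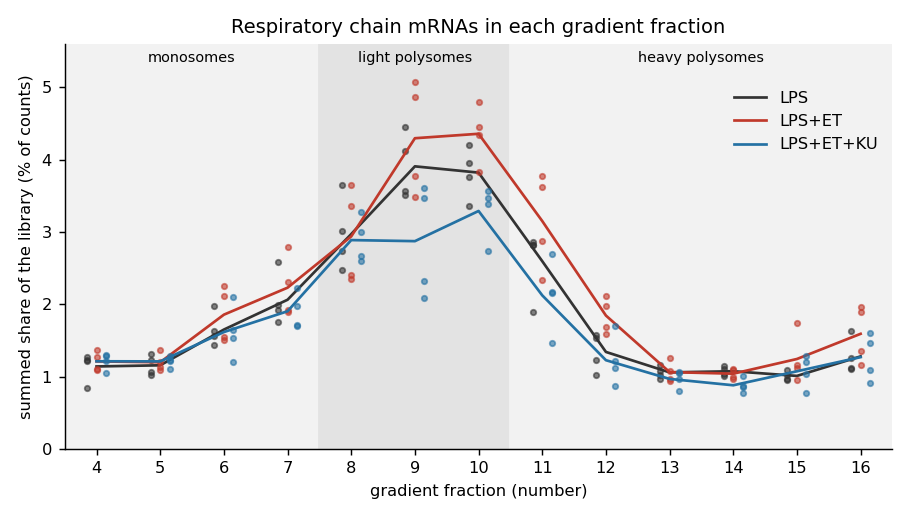
Share of all counts taken by the 90 members (percent, vertical axis) in each gradient fraction (horizontal axis) for the 3 treatments, with a point for each gradient, a line for the mean of 4 gradients, and shading for the monosome, light and heavy polysome fractions. The share is highest in fractions 9 and 10, at 3.91% and 3.82% on average in LPS.

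The same held gene by gene. Of the 83 members tested, 42 peaked in fractions 8 to 10 in LPS (50.6%, against 20.6% of the 12755 genes tested), as did 38 in LPS+ET. In LPS+ET+KU there were 47. Heavy and light polysomes were then compared within each treatment, with the gradient as a block. This comparison was added after the data were seen. In LPS, 51 of 83 members were lower in heavy than in light polysomes at an adjusted p under 0.01 (edgeR quasi-likelihood test, Benjamini-Hochberg adjustment), where 24.1% of all genes tested were, and 13 were higher, where 26.4% of all genes were. The median member was at -1.08 on the log2 scale, beside 0.05 over all genes. In LPS+ET 51 were lower (25.6% of all genes) and 11 higher (25.3%), with a median of -0.93. In LPS+ET+KU 50 were lower (23.1%) and 11 higher (22.5%), with a median of -1.0. In all 4 LPS gradients 55 members had lower CPM in heavy than in light polysomes, and 16 had higher. This count was not made over all genes, so it does not set the members apart from them. Without the gradients of pool LUL16, 49 members were lower and 15 higher in LPS.

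Monosomes gave a less steady contrast. Against monosomes, 34 members were higher in the light polysomes of LPS gradients, where 12.1% of all genes were. In heavy polysomes, 35 members were lower than in monosomes (23.5% of all genes) and 15 were higher (25.6% of all genes). The median member was at -0.21 on the log2 scale, and 0.02 over all genes. This last direction depended on scaling: with each fraction given equal weight the median member was at 0.32 and the median of all genes at 0.56, and with DESeq2 the members were at -0.49 and all genes at -0.83, so that the members lay below all genes under 2 of the scalings and above them under the third.

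The complexes differed in the balance of heavy and light polysomes in LPS. All 14 tested members of complex IV were lower in heavy polysomes, with a median log2 ratio of -2.20. In complex III 5 of 8 were lower and 2 higher (median -1.57), and in complex I 22 of 35 were lower and 5 higher (median -1.08). In the ATP synthase 8 of 15 were lower and 2 higher (median -0.59). The assembly factors had 2 lower and 2 higher of 7, with a median of -0.36. Complex II was the exception: none of its 4 members was lower, 2 were higher, and its median was 0.40. The order of these medians was not tested, since genes of a complex are not replicates.

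**Figure D2:**
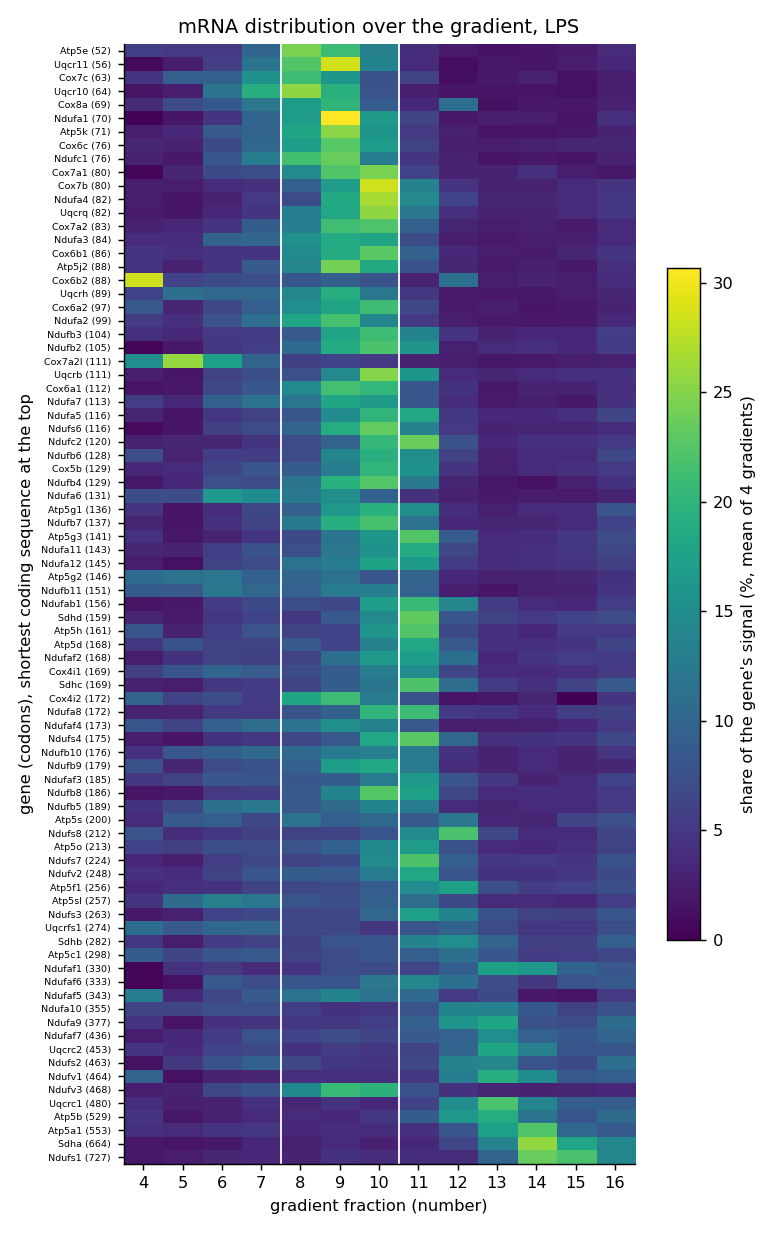
Distribution of each of the 83 tested members over fractions 4 to 16 in the LPS gradients, as the share of its summed signal in each fraction (colour scale, percent, mean of 4 gradients). Members are ordered by coding length with the shortest at the top, and white lines part monosome, light and heavy polysome fractions; 42 rows are brightest in fractions 8 to 10, Sdha and the other longest members at the bottom are brightest further to the right, and Cox7a2l in fraction 5.

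Individual members show the size of these differences. Atp5e was at 1976, 1760, 1803 and 1515 CPM in the light polysomes of the LPS gradients, at 721, 994, 803 and 525 CPM in monosomes, and at 213, 210, 203 and 178 CPM in heavy polysomes. Every heavy value was below every value of the other classes. The log2 ratio of heavy to light was -3.13 (SE 0.15, edgeR adjusted p = 2e-19). The lowest ratio among all members belonged to Uqcr10, at -3.33 (SE 0.18, adjusted p = 3.46e-18), with 630, 482, 612 and 530 CPM in light polysomes and 59.2, 66.1, 53.0 and 47.7 in heavy. Uqcr11, another small complex III subunit, was at -3.23, Cox8a at -2.87 and Cox6c at -2.53. Most of the core subunits on a list of 10 lay on the other side. Each one tested has more codons than the members' median of 156. Subunits outside the list were not classed as core or accessory. Sdha was at 148, 163, 160 and 159 CPM in heavy polysomes and at 41.3, 45.4, 41.1 and 48.3 CPM in light, a log2 ratio of 1.84 (SE 0.17, adjusted p = 4.34e-12). Uqcrc1, a core protein of complex III outside that list, was at 1.76, Atp5b at 1.60, Atp5a1 at 1.49, Ndufv1 at 1.41 and Ndufs1 at 1.37. Of the 9 listed core subunits tested 7 were higher in heavy polysomes, Uqcrfs1 was at 0.26 (adjusted p = 0.221), and Cox4i1 was lower at -0.56 (adjusted p = 0.00543).

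Against monosomes, the members with the lowest heavy ratio in LPS were Cox7a2l (-3.51), Uqcr10 (-3.07), Ndufa6 (-2.89), Cox8a (-2.57) and Cox7c (-2.51), and those with the highest were Sdha (1.77), Atp5b (1.70), Ndufv1 (1.58), Uqcrc1 (1.49) and Ndufa9 (1.17), all past an adjusted p of 0.01. Of the 5 low members, Cox7a2l and Ndufa6 were also lower in light polysomes than in monosomes, with log2 ratios of -2.09 and -0.67, where Cox7c was at 0.06, Uqcr10 at 0.26 and Cox8a at 0.30. Cox7a2l had 1260, 1261, 1999 and 1636 CPM in monosomes, 344, 320, 403 and 355 in light polysomes, and 125, 130, 159 and 121 in heavy. Its signal was highest in fraction 5, and 68.1% ± 1.42 (SD, n = 4) of it lay in the monosome fractions. Its coding sequence has 111 codons, and only 6 members in all peaked in fractions 4 to 7 in LPS.

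The position went with the coding length. Across the 83 members the log2 ratio of heavy to light in LPS and the number of codons had a Spearman correlation of 0.86, and across 10571 protein-coding genes of 0.46 (descriptions over genes of the same libraries, which are not independent). The members' median was 156 codons and that of all these genes 456. Members were then set beside other protein-coding genes of like length. Up to 100 codons the median log2 ratio was -2.45 for 21 members and -2.20 for 208 other genes. From 100 to 150 codons it was -1.29 for 19 members and -1.44 for others, from 150 to 200 codons -0.62 for 18 members and -0.71 for others, and from 200 to 300 codons 0.21 for 10 members and -0.18 for others. Above 300 codons the 15 members were at 1.08 and other genes at 0.34. Within the interval of their length, 47 of 83 members lay between the lower and upper quartile of the other genes.

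**Figure D3:**
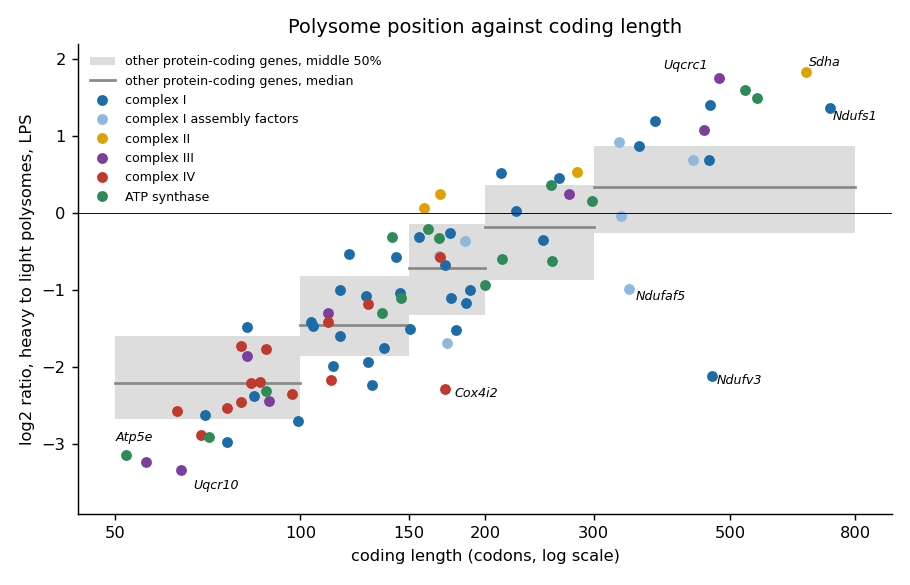
Log2 ratio of heavy to light polysomes in LPS (vertical axis) against coding length in codons (horizontal log axis) for the members, coloured by complex. Grey boxes and lines give the middle 50% and the median of other protein-coding genes in 5 length intervals, and members climb with them from Atp5e (52 codons, -3.13) to Sdha (664 codons, 1.84), with Ndufv3 far below.

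A few members, chosen after their values were seen, lay far from genes of their length. Ndufv3, a small accessory subunit of complex I, has an annotated principal form of 468 codons and a log2 ratio of -2.11 where other genes of that length had a median of 0.34; forms of 104 and 86 codons are annotated too, and which form the tags came from was not tested. Cox4i2 (172 codons), an isoform of subunit IV, was at -2.28 against -0.71 for others of its length, and Ndufaf5 (343 codons), a complex I assembly factor, at -0.98 against 0.34. On the other side, Sdha, Uqcrc1, Atp5b and Atp5a1 all exceeded the upper quartile of 0.88 for genes of more than 300 codons.

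Genes that work with the members differed in position. Over all genes 26.4% were higher and 24.1% lower in heavy than in light polysomes of LPS gradients, and 23.5% were lower than in monosomes. All 14 enzymes of the tricarboxylic acid cycle, which feeds the chain with NADH and succinate, were higher in heavy than in light polysomes of LPS gradients (median 1.12). Of 45 tested electron carriers and assembly factors outside the rule, 6 were higher and 17 lower (median -0.16), and of 14 transcription and mitochondrial DNA regulators 6 were higher and 2 lower (median 0.39). All 7 mitochondrially encoded mRNAs in the table were lower in heavy than in light polysomes (median -2.17) and lower than in monosomes (median -3.97).

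Treatments were compared on the counts summed over fractions 4 to 16 of each gradient, termed ribosome association. Sequencing depth differed by class and treatment. Monosomes held 13.68% to 17.64% of a gradient's counts in LPS and 28.45% to 34.03% in LPS+ET+KU. In LPS+ET they held 10.85% to 12.98% outside LUL16, whose share lay in the LPS+ET+KU range. Members were richest in light polysomes, so their summed values also depend on this depth. Its part in the changes was not tested, apart from the fits with equal weight per fraction. The pools paired the gradients. Log2 changes, SEs, adjusted p-values and named calls between treatments are from fits without the pool unless the block is named. Counts of calls with the pool as a block are given where they differ. With etoposide the median member stood at its LPS level: 47 of 83 were higher and 36 lower, with a median log2 change of 0.02 beside 0.03 over all genes. In this comparison 12.7% of all genes passed an adjusted p of 0.01, and 2 members did, Cox6b2 and Ndufaf3. With the pool as a block 25.9% of all genes passed, and 4 members did, Ndufb6 (higher) and Uqcrb (lower) being added. Leaving out the LUL16 gradients also gave 4 members.

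Cox6b2 was at 4.75, 6.54, 4.64 and 6.54 CPM in LPS, at 59.9, 48.8, 55.4 and 82.6 CPM in LPS+ET and at 47.3, 28.7, 48.8 and 63.0 CPM in LPS+ET+KU. Both etoposide groups lay wholly above LPS, and they overlapped each other, though LPS+ET+KU was below LPS+ET in each pool. The log2 change was 3.45 (SE 0.27, edgeR adjusted p = 2.43e-06) in LPS+ET and 3.05 (SE 0.26, adjusted p = 1.03e-05) in LPS+ET+KU, which share the LPS gradients. Between LPS+ET+KU and LPS+ET it was -0.40 (SE 0.24, adjusted p = 0.46). The smallest p an exact permutation test that disregards the pools allows with 4 gradients against 4 is 0.0286, and both comparisons with LPS reached it. Even after this rise Cox6b2 was far below Cox6b1, which was at 597, 836, 326 and 512 CPM in LPS and at 420, 673, 225 and 495 CPM in LPS+ET, and did not pass the test (log2 change -0.32, adjusted p = 0.572).

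Ndufaf3, an assembly factor of complex I, was at 24.9, 31.6, 26.4 and 29.2 CPM in LPS, at 9.28, 12.4, 13.7 and 12.6 CPM in LPS+ET, and at 14.5, 25.2, 19.3 and 21.5 CPM in LPS+ET+KU. The LPS+ET gradients lay below all others. The log2 change with etoposide was -1.23 (SE 0.20, adjusted p = 0.000544), and it did not pass with each fraction given equal weight (limma adjusted p = 0.0248). Against LPS+ET the LPS+ET+KU group was at 0.75 (SE 0.19, adjusted p = 0.0616), which passed with the pool as a block (adjusted p = 0.00402).

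With the ATM inhibitor most members stood at lower values. Against LPS, 65 of 83 members were lower in LPS+ET+KU, with a median log2 change of -0.23 beside 0.09 over all genes, of which 44.4% were lower. With each fraction given equal weight these medians were -0.08 and 0.13. Few passed singly: 10.7% of all genes did, and 2 members, Cox6b2 (higher) and Uqcrb (lower). With the pool as a block 26.8% of all genes passed, and 13 members did, Cox6b2 higher and 12 lower: Atp5k, Uqcr11, Uqcrb, Cox6b1, Atp5a1, Uqcr10, Ndufaf4, Ndufs6, Ndufaf2, Ndufs1, Ndufaf3 and Ndufaf6. By complex the medians were -0.42 for the ATP synthase, -0.37 for complex III, -0.26 for complex IV, -0.15 for complex I, -0.47 for the assembly factors and -0.01 for complex II, and all 8 members of complex III were lower.

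Uqcrb, a subunit of complex III that helps to bind ubiquinone, was at 146, 150, 156 and 109 CPM in LPS, 95.7, 81.9, 102 and 104 in LPS+ET, and 86.0, 81.0, 68.2 and 87.8 in LPS+ET+KU. The LPS gradients lay above both other groups. The log2 change was -0.55 (adjusted p = 0.0278) in LPS+ET and -0.80 (SE 0.16, adjusted p = 0.00407) in LPS+ET+KU, and the second did not pass when the LPS gradient of LUL15, LUL16 or LUL17 or the LPS+ET+KU gradient of LUL17 was left out (adjusted p 0.0135 to 0.0154). Atp5a1 was at 672, 693, 625 and 628 CPM in LPS, 734, 714, 614 and 621 in LPS+ET, and 482, 493, 412 and 367 in LPS+ET+KU. The inhibitor group lay wholly below the other groups. Its log2 change against LPS was -0.58 (SE 0.15, adjusted p = 0.0172), which passed with the pool as a block (adjusted p = 0.00168).

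The inhibitor was compared with etoposide alone in LPS+ET+KU against LPS+ET, the contrast in which the groups differ by KU55933. Here 68 of 83 members were lower, with a median of -0.26 beside 0.04 over all genes. With each fraction given equal weight these medians were -0.25 and 0.04. No member passed an adjusted p of 0.01 with edgeR, where 0.455% of all genes did, and DESeq2 called 2 members. At an unadjusted p under 0.05 there were 19 of 83 members and 2031 of 12755 genes. The members with the smallest p were Atp5a1 (-0.61, SE 0.15, adjusted p = 0.0562), Ndufaf3 (0.75) and Ndufa4 (-0.53, SE 0.15, adjusted p = 0.0781). With the pool as a block 6.1% of all genes passed, and 6 members did, Ndufaf3 higher and Atp5k, Ndufb6, Atp5a1, Ndufa1 and Cox4i2 lower. All 8 members of complex III and all 4 of complex II were lower, as were 12 of 15 of the ATP synthase, 28 of 35 of complex I and 11 of 14 of complex IV. No listed core subunit passed in any of the 3 comparisons of ribosome association by edgeR without the block. Between LPS+ET+KU and LPS+ET their log2 changes ran from -0.61 for Atp5a1 and -0.40 for Ndufs1 to -0.12 for Uqcrfs1.

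**Figure D4:**
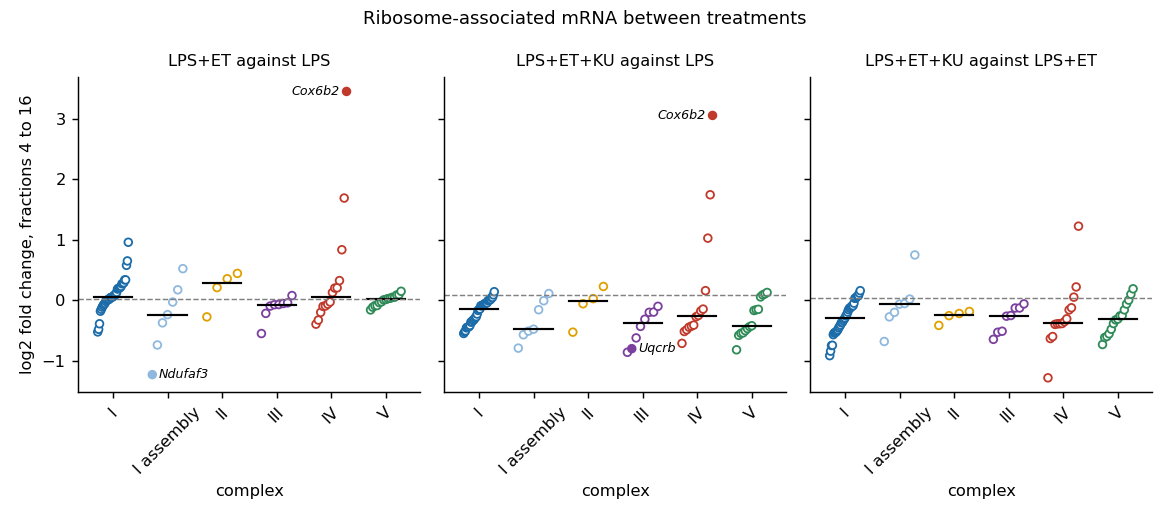
Log2 changes of the 83 tested members in ribosome association (vertical axis) by complex for the 3 comparisons of treatments, with members past an adjusted p of 0.01 filled and named, a black bar for the median of each complex (V is the ATP synthase) and a dashed line for the median of all genes. Points centre near 0 for LPS+ET against LPS (median 0.02) and lie mostly below 0 in the comparisons that involve the inhibitor (medians -0.23 and -0.26), with Cox6b2 alone at 3.45 and 3.05.

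The fraction classes were compared between treatments in the same way. Cox6b2 passed in every class in both etoposide groups. Its log2 change was 3.94 in monosomes, 3.82 in light and 2.74 in heavy polysomes for LPS+ET, and 3.36, 2.52 and 2.65 for LPS+ET+KU, with adjusted p-values from 5.41e-06 to 0.000608. In LPS it was at 6.97, 12.5, 11.8 and 10.4 CPM in monosomes and at 2.50, 2.08, 2.95 and 3.08 CPM in heavy polysomes, and in LPS+ET at 159, 55.0, 174 and 217 and at 14.7, 10.4, 19.7 and 25.8 CPM. Its CPM was higher in monosomes than in heavy polysomes in each of the 12 gradients.

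In monosomes, LPS+ET against LPS gave 3 members, all higher, where 9.52% of all genes passed: Cox6b2, Ndufc2 (0.82, SE 0.16, adjusted p = 0.0021), a membrane subunit of complex I, and Atp5d (0.72, SE 0.15, adjusted p = 0.00471), the delta subunit of the ATP synthase. With the block 24.4% of all genes passed, and 4 members were higher and 9 lower. For LPS+ET+KU against LPS, 5.96% of all genes passed, and 3 members: Cox6b2, Atp5d (0.70) and Uqcr10 (-0.91). With the block these became 22.4%, 3 higher and 12 lower. Between LPS+ET+KU and LPS+ET, 0.213% of all genes passed and no member by edgeR. At an unadjusted p under 0.05 there were 7 members and 1204 of 8932 genes. With the block 5.33% of all genes passed, and 1 member, Cox6a2.

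In light polysomes, 10.6% of all genes passed for LPS+ET against LPS, and of the members Cox6b2 and Ndufaf3 (-1.31, SE 0.25, adjusted p = 0.00185). With the block it was 24.6%, 5 higher and 4 lower. LPS+ET+KU against LPS gave 7.13% of all genes and 3 members, Cox6b2, Atp5k (-1.0, SE 0.23, adjusted p = 0.00926), a small subunit of the membrane part of the ATP synthase, and Ndufb4 (-0.85, SE 0.18, adjusted p = 0.00552). With the block 23.5% passed, with 2 members higher and 18 lower. Atp5k illustrates the pairing by pool: its light polysome CPM was 278, 227, 166 and 176 in LPS, 253, 222, 146 and 160 in LPS+ET, and 127, 100, 92.7 and 96.2 in LPS+ET+KU. Pools LUL15 and LUL16 were the higher ones in both groups without inhibitor, and all 4 gradients with inhibitor lay below every other gradient. Between LPS+ET+KU and LPS+ET no member passed by edgeR (0.292% of all genes), and 5 passed by DESeq2. At an unadjusted p under 0.05 there were 23 members and 1515 of 9922 genes. With the block 5.12% of all genes passed and 10 members, all lower: Cox4i2, Cox6b1, Cox6b2, Atp5k, Cox8a, Atp5e, Ndufa3, Uqcr10, Cox6c and Ndufa1. Cox6b1 was at 1175, 1646, 677 and 1165 CPM in light polysomes of LPS, 996, 1075, 442 and 1066 of LPS+ET, and 434, 670, 268 and 468 of LPS+ET+KU, so that in every pool the LPS+ET+KU value was the lowest.

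In heavy polysomes, 9.69% of all genes passed for LPS+ET against LPS, and again Cox6b2 and Ndufaf3 (-1.32, SE 0.26, adjusted p = 0.0027) of the members, and with the block 20.4%, 3 higher and 1 lower. For LPS+ET+KU against LPS 7.95% passed, and only Cox6b2 of the members, and with the block 20.5%, 1 higher and 5 lower. For LPS+ET+KU against LPS+ET 0.572% of all genes passed and no member by edgeR with or without the block, and 1 member by DESeq2. At an unadjusted p under 0.05 there were 9 members and 1691 of 11368 genes. Of the 83 members 73 were lower, with a median of -0.24 beside 0.00 over all genes.

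The change of the ratio of heavy polysomes to monosomes between treatments was tested as an interaction with the gradient as a block. For LPS+ET against LPS 4.64% of all genes passed, and 2 members, both toward heavy polysomes. No member passed without any one of the 4 LPS gradients or without the LPS+ET gradient of LUL17 or LUL18, and 6 passed without that of LUL16. Uqcr10 had log2 ratios of -3.0, -3.18, -3.16 and -2.92 in LPS and -2.44, -2.10, -1.67 and -2.01 in LPS+ET, which do not overlap (change 1.00, SE 0.25, adjusted p = 0.00605). Its monosome CPM was 474, 599, 474 and 362 in LPS and 356, 248, 221 and 249 in LPS+ET, and its heavy polysome CPM overlapped between the groups, at 47.7 to 66.1 and 57.9 to 69.2. Ndufa7, an accessory subunit of complex I, had -1.58, -1.91, -1.59 and -1.45 in LPS and -0.86, -1.13, -0.02 and -0.48 in LPS+ET (change 1.04, SE 0.26, adjusted p = 0.00687). For LPS+ET+KU against LPS 4.72% of all genes passed, and 2 members, both toward monosomes. No member passed without the LPS gradient of LUL15 or LUL16, and 1 passed without that of LUL18 or any one of the LPS+ET+KU gradients. Atp5b had 1.72, 2.01, 1.49 and 1.55 in LPS and 0.99, 0.84, 0.96 and 0.54 in LPS+ET+KU (change -0.87, SE 0.19, adjusted p = 0.00207). Atp5c1, the gamma subunit that forms the central stalk, had -0.19, -0.15, -0.90 and -0.53 in LPS and -1.29, -1.95, -1.33 and -1.07 in LPS+ET+KU (change -0.97, SE 0.24, adjusted p = 0.00571). In each of these 4 the groups did not overlap. They were picked by this test on the same gradients, so the lack of overlap adds no support. None of the 4 passed without the block. For LPS+ET+KU against LPS+ET no member passed by edgeR, where 0.164% of all genes did. At an unadjusted p under 0.05 there were 11 members and 1434 of 11611 genes.

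Some members varied more between pools or single gradients than between treatments. Cox8a was at 430, 411, 11.9 and 181 CPM in LPS, 426, 645, 7.41 and 221 in LPS+ET, and 341, 359, 6.35 and 152 in LPS+ET+KU. All 3 gradients of pool LUL17 were thus far below the others, on 105, 97 and 96 counts against 1979 to 7909 counts elsewhere. Its range over the pool means, 5.63 on the log2 scale, was the largest of all 12755 genes tested. Ndufb8, another subunit with low values in LUL17, had a range of 2.04. Over the 83 members the median range was 0.52 (0.56 over all genes), and 15 exceeded 1 (18.1%, against 16.0% of all genes). The cause of the Cox8a pattern was not tested.

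Isoforms known from particular tissues were rare in these cells. The table holds 5 of the 8 listed, and Cox8b, Cox8c and Ndufa4l2 were not analysed here. Cox7a1, the heart and muscle form of subunit VIIa, was at 76.2 and 86.2 CPM in the LPS+ET and LPS+ET+KU gradients of LUL16 and at 4.17 to 12.5 in the other 10. Cox6a2, the muscle form of subunit VIa, was at 18.5 and 42.9 in the same gradients and at 4.20 to 13.3 elsewhere. These are the gradients with the high values of Lck. The other T cell markers counted were at no more than 2.54 CPM (Thy1) in any gradient. Muscle markers summed to at most 0.524 CPM in every gradient, and the part of other cells in these values was not tested. Neither isoform passed a test of ribosome association without the block. Cox4i2 was at 3.81 to 7.04 CPM in LPS, 3.67 to 16.3 in LPS+ET and 2.52 to 6.54 in LPS+ET+KU, and Cox7b2 had 10 counts in all. Cox6b2 rose in every pool, so its change does not rest on LUL16: without that pool the log2 changes were 3.62 and 3.31.

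**Figure D5:**
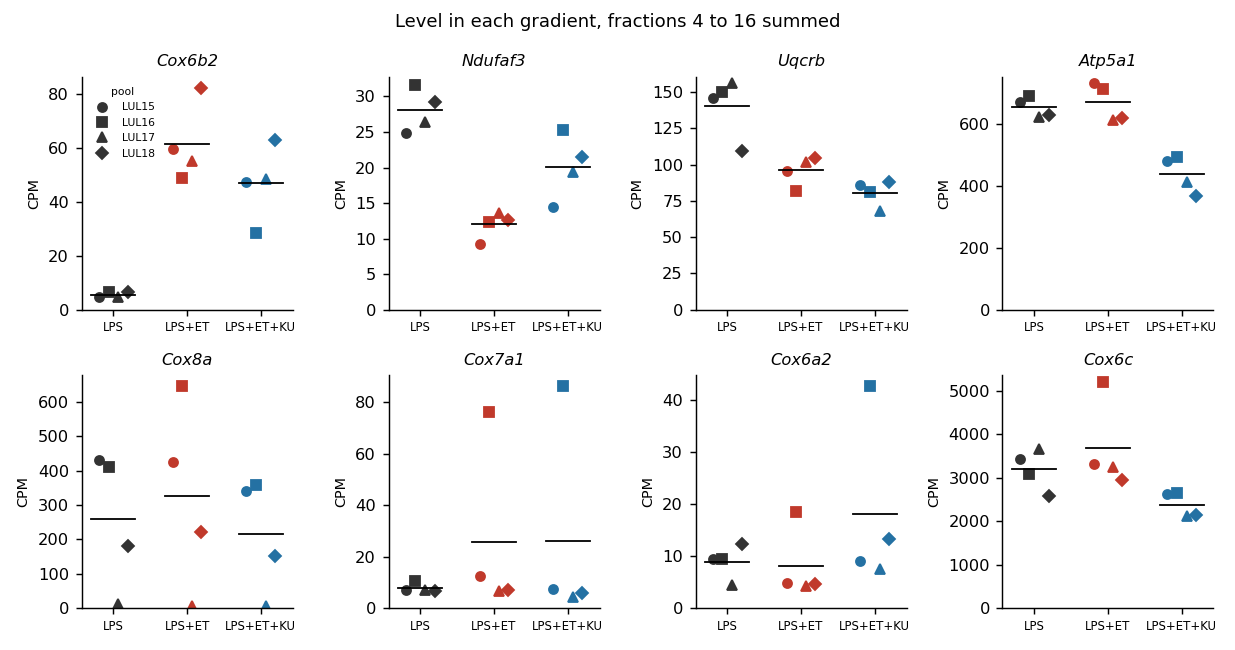
CPM (vertical axis from 0, a scale for each gene) in each of the 12 gradients by treatment for 8 members, with the pool given by the shape of the point, the treatment by its colour, and black bars for the means of 4 gradients. Cox6b2 separates LPS (4.64 to 6.54) from both etoposide groups (28.7 to 82.6), while Cox8a separates pool LUL17 (6.35 to 11.9) from the other pools (152 to 645).

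The partner genes were tested for ribosome association by the same fits. Over all genes 12.7% passed for LPS+ET against LPS, 10.7% for LPS+ET+KU against LPS and 0.455% for LPS+ET+KU against LPS+ET. Whether the lists differ from these shares was not tested. Of 46 electron carriers and assembly factors outside the rule, none rose and 3 fell with etoposide: Coa3 (-0.75), Tmem186 (-0.77) and Cox20 (-0.71), which help to assemble complexes IV and I. In LPS+ET+KU against LPS, Coq7 of ubiquinone synthesis fell (-1.0). Its mean went from 96.9 ± 17.2 CPM (LPS) to 65.3 ± 8.36 (LPS+ET) and 48.4 ± 9.49 (LPS+ET+KU; SD, n = 4), and against LPS+ET it did not pass (-0.43, edgeR adjusted p = 0.287). Among 16 regulators tested, the mitochondrial RNA polymerase Polrmt (1.10), the nuclear receptor Esrra (1.40) and Gabpb1 (0.93), a subunit of the factor NRF2 that binds promoters of respiratory genes, rose with etoposide, and Nrf1 (-0.93), a transcription factor of the same genes, fell. In LPS+ET+KU against LPS, Nrf1 (-0.97) and the coactivator Pprc1 (-1.63) fell. Of 14 tricarboxylic acid cycle enzymes none passed in LPS+ET against LPS, and Suclg1 fell in LPS+ET+KU against LPS (-0.86). It was at 59.9 ± 7.43 CPM in LPS and 41.6 ± 8.18 CPM with etoposide alone, and against LPS+ET it did not pass (-0.33, edgeR adjusted p = 0.45). None of the 7 mitochondrially encoded mRNAs passed in any of the 3 comparisons.

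The promoters of the members were searched for the motif of NRF1. The letters GCGC, then A and any base, then GCGC again were looked for on both strands from 250 bases before to 50 after the start of transcription in RefSeq sequences of GRCm38.p6. They were found in 19 of the 75 members that could be matched (25.3%), and in 5.19% of 27025 genes. A match describes the letters of the window and not binding of the factor.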

How the data were processed

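Per the labels and methods, the authors sequenced 3′ ends of RNA from each fraction, taking equal RNA concentrations, mapped the tags to GRCm38 with Ensembl annotation and summed them per gene at poly(A) sites. The deposited values are raw counts, without normalization. The submitters' processing notes name TopHat2 2.0.12, HTSeq and DESeq2 1.6.3. The table holds 157 libraries and every row names a gene. Library totals ran from 14724 to 4170688.

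Counts were summed per gradient over all fractions or over a fraction class. Treatments were compared on 12 gradients with edgeR 4.0.16 (R 4.3.3), using TMM normalization, its default expression filter, the quasi-likelihood F-test and Benjamini-Hochberg adjustment over all genes tested, and an adjusted p under 0.01 was the threshold. The fits were tested on simulated data. Fraction classes were compared with the gradient as a block. The heavy to light comparison was added after the data were seen. Alternatives were DESeq2 1.42.0, no filter on low counts, equal weight per fraction (limma 3.58.1, log2 of CPM with a pseudocount of 1), the pool as a replicate block, and leaving out each gradient or pool LUL16. CPM values are TMM-scaled.

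The pool in the column names was checked as a pairing of gradients. Deviations from the treatment means correlated at 0.288 to 0.790 in all 12 same-pool pairs and at -0.617 to 0.276 in 36 other pairs. The pools thus paired the gradients. The main comparisons of treatments hold no term for the pool, so their SEs and p-values disregard this pairing. In each comparison they called a smaller share of all genes than the fits with the pool as a block, which are given as an alternative. The columns of LUL16 and LUL18 (78 of 157) could be matched to a treatment and fraction but not to 1 replicate number.

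The members, gene lists and comparisons were chosen with earlier results of these data known. Genes were named by rule: those past the threshold for ribosome association with 1 sign whichever gradient was left out, or else the 3 with the smallest p; the 5 lowest and 5 highest ratios of heavy polysomes to monosomes; members whose ratio changed; the 5 highest levels; core subunits and tissue-restricted isoforms. Others were named after their values were seen.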

Additional observations from a re-analysis of the deposited data

Results flagged for a closer look

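In 96 groups of 4 gradients a single gradient was looked for that stood far from its group, and chance alone marks about 1 group in 20. The gradient of LUL16 stood apart for Cox7a1 in all 3 treatments (10.4 CPM in LPS, 76.2 with etoposide and 86.2 with inhibitor and etoposide), for Cox6a2 in LPS+ET (18.5) and LPS+ET+KU (42.9), for Sdha in LPS+ET+KU (201), for Ndufv1 in LPS (106) and for Cox6c in LPS+ET (5198). Single other gradients stood apart for Ndufa7 in LPS+ET, with 173 CPM in LUL15, and for Cox4i1 in LPS+ET, with 858 CPM in LUL17. Summed T cell markers were 297 and 378 CPM in the LPS+ET and LPS+ET+KU gradients of LUL16 and at most 159 elsewhere. Nearly all of this was Lck, and the other T cell markers counted were at no more than 2.54 CPM (Thy1). Erythroid markers summed to 89.5 and 177 against at most 63.9, nearly all of it Hbb-b2. Their part in these values was not tested.

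The ratio of heavy polysomes to monosomes differed between treatments for 4 members by the interaction test with edgeR: Uqcr10 (change 1.00 on the log2 scale) and Ndufa7 (1.04) in LPS+ET against LPS, and Atp5b (-0.87) and Atp5c1 (-0.97) in LPS+ET+KU against LPS.

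The fraction 17 library, which entered no comparison, held 777 counts, of which 13 fell on members.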

How the results depend on the processing

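The lower share of members in heavy than in light polysomes held under every alternative run: 43 to 53 members were called lower when a gradient was left out. The higher calls in LPS+ET+KU were 7 without the gradient as a block. Against monosomes the median member reversed with equal weight per fraction, to 0.32 (LPS), 0.42 (LPS+ET) and 0.12 (LPS+ET+KU). The median of all genes rose too, to 0.56, 0.60 and 0.64, and the members stayed below it. The share of all genes called is given above only for the main fits and with the pool as a block. Counts of members under the other alternatives therefore do not set the members apart from other genes. With equal weight the calls became 23 lower and 35 higher for LPS, 21 and 33 for LPS+ET, with 22 higher for LPS+ET+KU. Without the replicate block 22 were lower in LPS+ET. For light polysomes against monosomes, equal weight gave 3 lower and 57 higher for LPS, 1 lower for LPS+ET, with 2 lower and 58 higher for LPS+ET+KU. Without the replicate block these were 4 lower for LPS, 3 lower for LPS+ET, with 6 lower and 19 higher for LPS+ET+KU. Leaving out single gradients gave 8 to 11 higher and 30 to 35 lower for heavy polysomes against monosomes (LPS), 13 to 24 and 28 to 34 (LPS+ET), and 12 to 14 and 34 to 39 (LPS+ET+KU). For light polysomes against monosomes it gave 31 to 33 higher and 7 to 8 lower (LPS), 33 to 43 and 4 to 8 (LPS+ET), and 30 to 33 and 8 to 13 (LPS+ET+KU).

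For ribosome association the members called with the pool as a replicate block were 4 (LPS+ET against LPS), 13 (LPS+ET+KU against LPS) and 6 (LPS+ET+KU against LPS+ET). In monosomes they were 13, 15 and 1, in light polysomes 9, 20 and 10, and in heavy polysomes 4 and 6 for the comparisons with LPS. DESeq2 called 8 and 2 members for ribosome association of LPS+ET+KU against LPS and against LPS+ET, 6 in monosomes of LPS+ET+KU against LPS, 4, 8 and 5 in light polysomes, 2 and 1 in heavy polysomes of LPS+ET+KU against LPS and against LPS+ET, and 4 for the change of ratio in LPS+ET against LPS. Equal weight per fraction gave 1 for ribosome association of LPS+ET against LPS, 0 in monosomes and 1 in light polysomes of LPS+ET+KU against LPS, and 1 in heavy polysomes of LPS+ET against LPS. Without a filter on low counts 1 member was called in monosomes of LPS+ET against LPS. Without pool LUL16 the calls were 4 for ribosome association of LPS+ET against LPS, 1 in monosomes and 1 in light polysomes of LPS+ET+KU against LPS, and 6 for the change of ratio in LPS+ET against LPS. Without the replicate block the change of ratio gave 0 members in both comparisons with LPS.

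Leaving out 1 gradient gave 1 to 2 members for ribosome association of LPS+ET+KU against LPS, 1 to 2 in monosomes and in heavy polysomes of LPS+ET against LPS, and 1 to 2 in monosomes and light polysomes of LPS+ET+KU against LPS. For the change of ratio it gave 0 to 6 in LPS+ET against LPS, 0 to 2 in LPS+ET+KU against LPS and 0 to 1 in LPS+ET+KU against LPS+ET. The 6 came without the LPS+ET gradient of LUL16, and the 0 without any of the 4 LPS gradients or the LPS+ET gradient of LUL17 or LUL18. Of the alternatives for single named genes, 1112 kept direction and side of the threshold, 14 gained it and 5 lost it. The 5 were Uqcrb in LPS+ET+KU against LPS without each of 4 gradients and Ndufaf3 in LPS+ET against LPS with equal weight. The cause of these changes was not tested.

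Relative to the main scaling, DESeq2 moved the median of all genes by -0.85 and equal weight by 0.53 for heavy polysomes against monosomes in LPS. Members with under 20 CPM rest on few counts in the thinnest libraries, and 7 members could not be tested.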
